A study of Homo sapiens with 8 samples.

Results

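The genes examined here encode the adherens junction of epithelial cells and proteins closely tied to it: the cadherins CDH1 and CDH3, the catenins CTNNA1, CTNNB1, CTNND1 and JUP, the adhesion molecule EPCAM, and the splicing regulators ESRP1 and ESRP2. They are 9 of the 18244 genes with a probe set of their own. All probe sets whose annotation gave 1 of these 9 symbols alone were used, which made 31 of the 49293 tested. CTNNB1 had 8 probe sets, CTNNA1 7, CTNND1 5 and EPCAM 3, while CDH1, CDH3 and ESRP1 had 2 each and JUP and ESRP2 had 1 each. A further 3 probe sets named CTNNA1 together with LRRTM2 and were left out.

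E-cadherin, the product of CDH1, joins neighbouring epithelial cells by binding E-cadherin on the next cell. Its tail holds p120-catenin (CTNND1) and either beta-catenin (CTNNB1) or plakoglobin (JUP), and these last bind alpha-catenin (CTNNA1), which meets the actin cytoskeleton. EPCAM is an adhesion protein of epithelial cells and of many carcinomas, and the ESRP proteins drive the epithelial pattern of exon use in transcripts such as that of CTNND1. Loss of CDH1, EPCAM and ESRP expression is a known feature of the epithelial-mesenchymal transition.

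RNA came from the cell lines A549 and PC9, both grown from human lung adenocarcinoma. Each line had been infected with a retrovirus carrying EN2, an engrailed homeobox transcription factor, or with the Neo vector as control (labelled NC), and infected cells were kept by selection with genemycin, as the labels spell it, so the controls carried a retrovirus and its resistance gene too. A549 grew in F-12K and PC9 in DMEM, both with fetal bovine serum. The 4 groups had 2 arrays each, and the labels do not say whether the replicates were separate cultures or the cells pools or clones. The p-values set a change against the spread of arrays within groups, pooled over the 4 groups and drawn toward that of other probe sets. That spread can be technical.

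Values are log2 signals made with RMA, and a change is the mean of the EN2 arrays minus the mean of the vector arrays. The 2 arrays of each group had a correlation of 0.997 over all probe sets. Background was set at the 95th percentile of 100 spike-in probe sets, 4.38 in A549 and 3.92 in PC9. All 8 epithelial markers measured were above background in both lines. Of these, 3 (KRT19, CDH1 and EPCAM) were called lower with EN2 in A549, against 0.981% of all genes. The lists were chosen with earlier results of these data known, so this share is a description only. CDH1 and EPCAM belong to the genes examined here, so KRT19 alone is a further call. The KRT19 call (−0.70, adjusted p = 0.00208) ended in a fit that took in the 18S rRNA control signal (−0.54, adjusted p = 0.584) and with both outer A549 arrays for that signal left out (−0.61, adjusted p = 0.208). The log2 of the summed signal of the 8 epithelial markers was 14.37 to 14.42 with EN2 and 14.51 to 14.58 with vector in A549, and 15.97 to 16.04 in PC9. Of the fibroblast, endothelial and leukocyte markers, 3 of 7, 3 of 5 and 3 of 6 were above background in A549, none was called in either line, and PTPRC, LYZ, COL3A1, DCN and LUM were below background on all arrays. Their summed signals in A549 were 7.67 to 7.77, 7.76 to 7.86 and 7.56 to 7.61 on the same log2 scale. The brighter EN2 probe set read 7.71 and 7.62 with EN2 against 6.48 and 6.57 with vector in A549 (limma adjusted p = 0.00035). In PC9 it read 6.24 and 6.39 against 5.86 and 5.78, which did not pass the test (adjusted p = 0.111). The other EN2 probe set did not pass in A549 either (log2 change 0.050). The 18S rRNA control signal, a technical measure, was 11.66 and 12.12 on the A549 EN2 arrays against 12.44 and 12.74 on the A549 vector arrays, and 6.05 to 6.10 on the PC9 arrays.

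The first comparison asked which of these genes changed with EN2 in A549. CDH1 and EPCAM fell, and no catenin, CDH3 or ESRP probe set passed the test in either direction. Of the 31 probe sets, 4 were lower, none was higher and 27 did not pass at an adjusted p below 0.05 by limma over all probe sets. Over the whole array 1.98% of probe sets were called, 0.937% lower and 1.04% higher. As the genes were chosen with earlier results of these data known, setting these shares side by side is a description only. The 4 calls were both probe sets of CDH1 and 2 of the 3 of EPCAM. Probe sets of a gene share its transcripts and are not independent.

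CDH1 stands first as the gene of E-cadherin, the receptor that all the catenins serve. Its brighter probe set, 11716906_a_at, read 8.49 and 8.64 on the A549 EN2 arrays and 9.72 and 9.65 on the A549 vector arrays. Both EN2 arrays lay below both vector arrays, and the groups did not overlap. CDH1 fell 2.17-fold (log2 change −1.11 ± 0.095 SE, adjusted p = 0.000372). In this bulk RNA, fewer cells with CDH1 transcript and less transcript per cell cannot be told apart.

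The dimmer CDH1 probe set, 11716905_a_at, read 4.82 and 5.04 with EN2 and 6.04 and 5.61 with vector in A549. It too separated the groups and fell, by 0.90 ± 0.16 SE on the log2 scale (adjusted p = 0.0237). Its call ended without A549 EN2 replicate 1 (−0.79, adjusted p = 0.21), without A549 vector replicate 1 (−0.68, adjusted p = 0.0726) and on the A549 arrays alone (adjusted p = 0.117). The brighter probe set kept its call in each of these 3 fits. The dimmer one was called in 12 of 18 alternatives, and the other 3 losses were with the 18S rRNA signal taken in (adjusted p = 0.793), without both outer arrays of that signal (adjusted p = 0.259) and with treat against a 1.2-fold change (adjusted p = 0.204).

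EPCAM fell as well. Its probe set 11716887_a_at, the brightest in A549, read 5.19 and 5.34 with EN2 and 6.05 and 6.03 with vector in A549. The vector arrays lay within 0.02 of each other and above both EN2 arrays. The log2 change was −0.77 ± 0.077 SE (1.71-fold lower, adjusted p = 0.000929).

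The EPCAM probe set 11745651_a_at read 3.95 and 4.02 with EN2, below the spike-in background, and 4.83 and 4.84 with vector. Only a bound can be read from it, at least 1.36-fold lower with EN2. This is the vector mean of 4.84 against the spike-in percentile of 4.39 on the EN2 arrays. The limma call (adjusted p = 0.000443) belongs to the measured change of −0.85, and the bound itself was not tested. The third EPCAM probe set, 11745652_s_at, read 5.11 and 4.81 against 5.35 and 5.41. Its log2 change of −0.42 did not pass (adjusted p = 0.0741), though its groups did not overlap either, and it passed without A549 EN2 replicate 1 (−0.57, adjusted p = 0.0402) and with replicate number as a block (adjusted p = 0.0379). All 3 EPCAM probe sets thus had the same sign in A549, and 2 passed, 11745651_a_at with EN2 values below background.

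**Figure D1:**
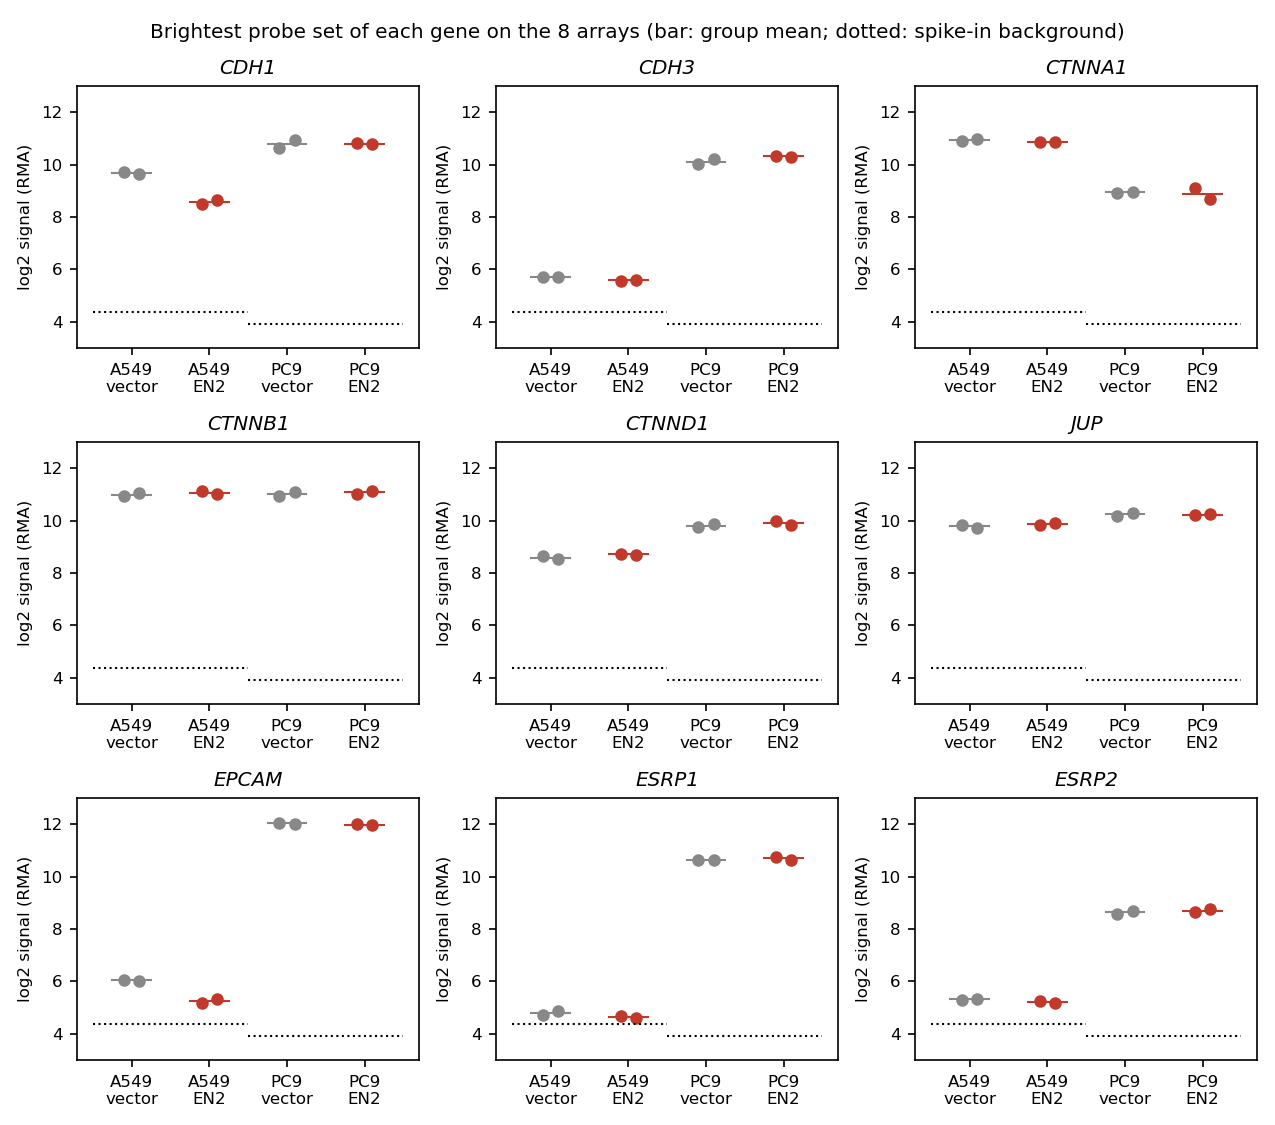
Log2 signal of the brightest probe set of each of the 9 genes on every array, with vector arrays in grey and EN2 arrays in red. Bars give group means and dotted lines the spike-in background of each line (4.38 in A549, 3.92 in PC9). CDH1 and EPCAM are lower on both A549 EN2 arrays than on both A549 vector arrays, and EPCAM, ESRP1, ESRP2 and CDH3 are all low in A549 and high in PC9.

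The 18S rRNA signal moved with EN2 in A549, as given above, and so did the actin 3′ minus 5′ control value (0.978 and 0.877 with EN2, 0.789 and 0.780 with vector). In a limma fit that also took in the 18S rRNA signal, CDH1 on 11716906_a_at changed by −0.98 ± 0.19 SE (adjusted p = 0.239). EPCAM on 11716887_a_at changed there by −0.63 ± 0.14 SE (adjusted p = 0.358), and neither passed. The EN2 probe set that rose in A549 was not called in that fit either (1.11, adjusted p = 0.205). Over all probe sets the A549 calls fell from 977 to 25. As the 18S rRNA signal moved with EN2 in A549, the fit tells them apart only in part. Without the A549 EN2 array of lowest and the A549 vector array of highest 18S rRNA signal, CDH1 changed by −1.08 (adjusted p = 0.0795) and EPCAM by −0.71 (adjusted p = 0.055), while EPCAM probe set 11745651_a_at passed there (adjusted p = 0.0474) but not in the fit with the 18S rRNA signal (adjusted p = 0.23).

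CDH3 encodes P-cadherin, a classical cadherin of basal epithelial cells that binds the same catenins, and is the next protein-coding gene to CDH1 in the GRCh38.p14 annotation order. Its brighter probe set read 5.58 and 5.60 with EN2 and 5.69 and 5.73 with vector in A549. The arrays did not overlap, yet the log2 change of −0.12 was small and did not pass (adjusted p = 0.571, 95% interval −0.31 to 0.073). The dimmer CDH3 probe set read 4.73 to 4.80 on all A549 arrays, with the groups overlapping. A change of the size seen in CDH1 lies outside the interval of the brighter CDH3 probe set. The dimmer one, with a vector mean of 4.77, was too near the background of 4.38 to show such a fall.

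Of the catenins that bind the cadherin tail, beta-catenin also carries the Wnt signal to the nucleus, plakoglobin serves desmosomes too, and p120-catenin keeps cadherins at the surface. None passed in A549. The brightest CTNNB1 probe set, 11722167_s_at, read 11.12 and 11.02 with EN2 and 10.95 and 11.04 with vector, a change of 0.077 with overlapping groups (adjusted p = 0.693, 95% interval −0.085 to 0.24). The other CTNNB1 probe sets changed by −0.019 to 0.18 in A549. JUP read 9.83 and 9.89 against 9.84 and 9.72, a change of 0.084 (adjusted p = 0.649, 95% interval −0.075 to 0.24).

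CTNNA1 did not pass on any probe set. The 6 that were above background read 9.98 to 10.96 in A549, and their changes ran from −0.15 to −0.087. The remaining CTNNA1 probe set, 11761924_at, stayed at 2.59 to 2.86 on all 8 arrays, below background, so no change can be read from it. Probe sets 11727396_a_at and 11749005_a_at differed by at most 0.089 on any array and add little to each other. The changes of the 6 brighter CTNNA1 probe sets in A549 were all negative, and 4 of the 6 did not overlap between groups. Over the array, both EN2 arrays lay below both vector arrays in 24.2% of probe sets in A549 and above them in 22%, so separation by itself was common.

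CTNND1 probe sets differed in sign. The brightest, 11722067_a_at, read 8.74 and 8.69 with EN2 and 8.65 and 8.53 with vector in A549, a change of 0.13 (adjusted p = 0.541). The next, 11721647_a_at, read 7.56 and 7.53 against 7.63 and 7.72, a change of −0.13 (adjusted p = 0.464). Both separated the groups, in opposite directions, and neither passed. The other 3 CTNND1 probe sets changed by −0.18 to −0.075. CTNND1 is a known target of the ESRP proteins, but which exons these probe sets cover was not analysed here.

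The splicing regulators were near background in A549. ESRP1 probe set 11723544_a_at read 4.69 and 4.60 with EN2 and 4.72 and 4.86 with vector, just above background, and its change of −0.14 did not pass (adjusted p = 0.49). The other ESRP1 probe set, 11723543_a_at, read 3.54 to 3.62 on all A549 arrays, below background, and gives no change there. ESRP2 read 5.24 and 5.17 against 5.30 and 5.34, a change of −0.11 (adjusted p = 0.632).

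Across all 31 probe sets the median A549 change was −0.11, against −0.0060 over all probe sets tested. Changes were negative in 21 and positive in 10. Both EN2 arrays lay below both vector arrays in 16 (against 24.2% of all probe sets) and above them in 2 (against 22%). These counts include 3 probe sets that were below background on some or all A549 arrays, 11761924_at of CTNNA1, 11723543_a_at of ESRP1 and 11745651_a_at of EPCAM, and without them the counts were 14 below and 2 above of 28. Probe sets of 1 gene repeat each other in these counts.

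The same comparison in PC9 asked whether these genes changed with EN2 in the second line, and no probe set passed. With none of 31 called by limma and 1 at an unadjusted p below 0.05, the background in PC9 was 0.284% of probe sets called, 0.201% lower and 0.0832% higher. CDH1 read 10.82 and 10.78 with EN2 and 10.65 and 10.93 with vector, with the EN2 arrays between the vector arrays. Its change was 0.011 (adjusted p = 1, 95% interval −0.20 to 0.22), an interval that holds no fall of the A549 size. The dimmer CDH1 probe set read 6.21 and 6.56 against 6.38 and 6.46, again overlapping.

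EPCAM did not pass in PC9 either. Its brightest probe set there was 11745651_a_at, at 12.13 and 12.09 with EN2 and 12.18 and 12.15 with vector. The probe set 11716887_a_at read 11.99 and 11.96 against 12.05 and 12.03, a change of −0.060 (adjusted p = 1, 95% interval −0.23 to 0.11). All 3 EPCAM probe sets had both EN2 arrays below both vector arrays in PC9, by changes of −0.060 to −0.054 that did not pass (adjusted p = 1 each). Over the array 15.7% of probe sets separated in that direction and 17.1% in the other.

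CDH3 was the member with the unadjusted p below 0.05 in PC9. Its brighter probe set read 10.34 and 10.28 with EN2 against 10.03 and 10.20 with vector, a change of 0.20 (adjusted p = 0.779, 95% interval 0.0021 to 0.39). The dimmer one read 8.77 and 8.75 against 8.51 and 8.68. Both CDH3 probe sets separated the groups with EN2 higher, and neither passed after adjustment.

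ESRP1 and ESRP2 were well expressed in PC9 and showed no called change. ESRP1 read 10.74 and 10.64 with EN2 and 10.63 and 10.62 with vector on 11723544_a_at, and 11.48 and 11.30 against 11.33 and 11.41 on 11723543_a_at. ESRP2 read 8.64 and 8.75 against 8.59 and 8.71. The changes of the 3 ESRP probe sets ran from 0.022 to 0.069. JUP read 10.20 and 10.24 against 10.19 and 10.28, a change of −0.014.

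**Figure D2:**
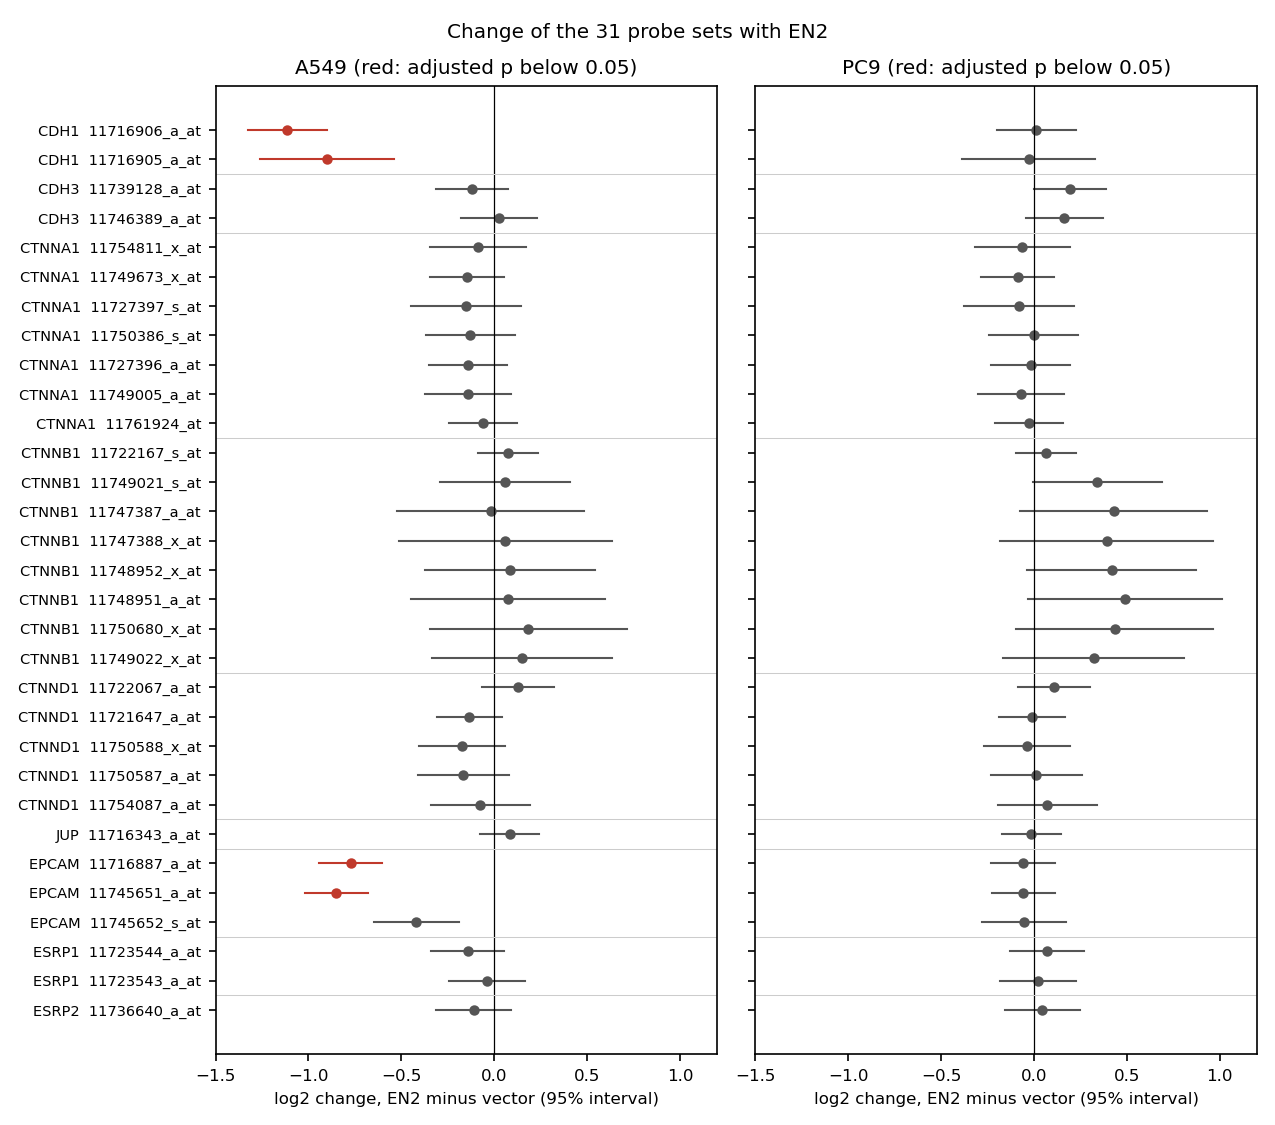
Log2 change (EN2 minus vector) of each of the 31 probe sets in A549 and in PC9, with limma's 95% intervals; red marks an adjusted p below 0.05. In A549 both CDH1 probe sets (−1.11 and −0.90) and 2 EPCAM probe sets are red (−0.77, and 11745651_a_at drawn at its measured value although its EN2 arrays were below background), and in PC9 none is, with wide intervals for CTNNB1.

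In PC9 the CTNNB1 values turned on a single array. On 7 of the 8 CTNNB1 probe sets, vector replicate 1 lay 0.54 to 0.79 below the lowest other PC9 array. Probe set 11748951_a_at, for example, read 8.13 on that array, against 9.04 on vector replicate 2 and 8.91 and 9.24 on the EN2 arrays. The eighth and brightest probe set, 11722167_s_at, read 10.95 there against 11.08, 11.02 and 11.14, so it was lowest by 0.073 only.

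The changes of those 7 CTNNB1 probe sets in PC9 were 0.32 to 0.49 with both vector arrays and −0.13 to 0.042 without vector replicate 1. Without vector replicate 2 they were 0.64 to 0.95 (smallest adjusted p = 0.0641), and none was called in any of these fits. Without EN2 replicate 1 they were 0.44 to 0.67, and without EN2 replicate 2 they were 0.13 to 0.33. Over the array, 52 probe sets lay more than 0.5 below every other PC9 array on vector replicate 1. Of these, 7 belonged to CTNNB1, and no other gene had more than 2. The actin 3′ minus 5′ value of vector replicate 1 (1.09) was within the 1.03 to 1.29 of the other PC9 arrays. No A549 array showed such a gap for CTNNB1.

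**Figure D3:**
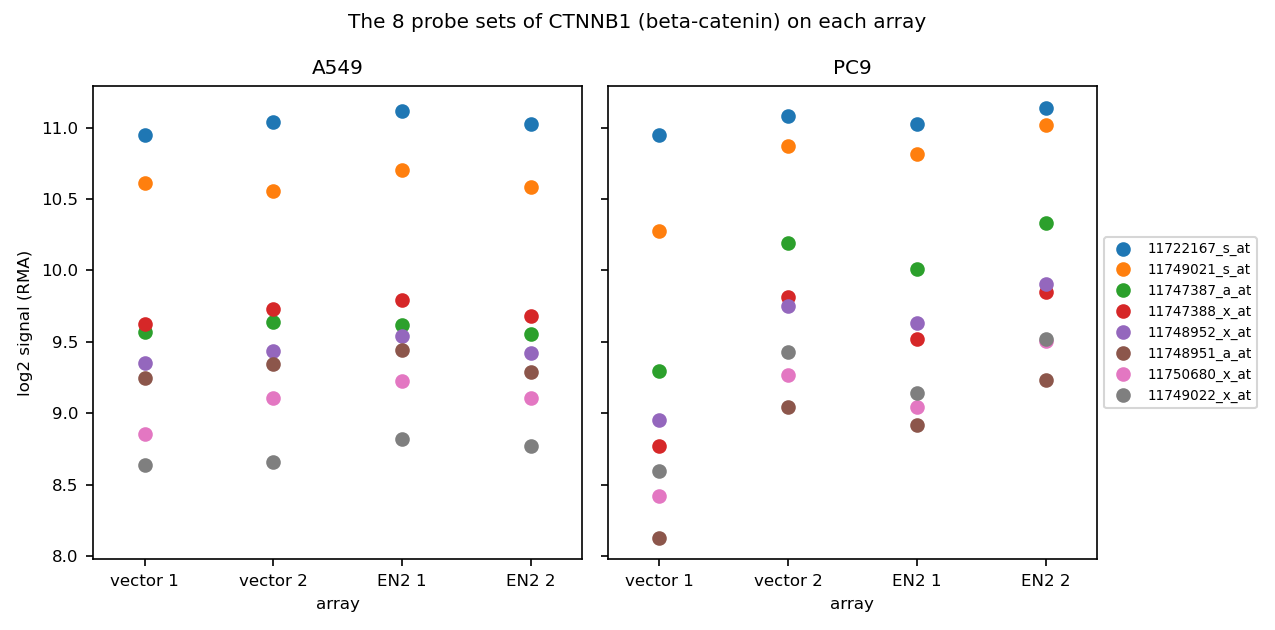
Log2 signal of the 8 CTNNB1 probe sets on each array, A549 at left and PC9 at right, 1 colour per probe set. On PC9 vector replicate 1, 7 probe sets drop by 0.54 to 0.79 below the lowest other PC9 array while the brightest stays near 11, and the A549 arrays show no such drop.

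CTNNA1 and CTNND1 did not pass in PC9. The 6 brighter CTNNA1 probe sets read 7.74 to 9.09, with changes of −0.088 to −0.0011. The brightest of them read 9.09 and 8.67 with EN2 against 8.93 and 8.96 with vector, so the EN2 arrays lay on either side of the vector arrays. CTNND1 probe set 11722067_a_at read 10.00 and 9.82 against 9.75 and 9.87, with a change of 0.11, and the others changed by −0.041 to 0.070.

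Whether the EN2 change differed between the lines was tested as the A549 change minus the PC9 change. The difference passed for the brighter CDH1 probe set (−1.13 ± 0.13 SE, adjusted p = 0.00681). It also passed for EPCAM on 11716887_a_at (−0.71 ± 0.11 SE, adjusted p = 0.0223), and on 11745651_a_at with the measured values (adjusted p = 0.0126). On 11745651_a_at the A549 EN2 values lay below background, so the difference is only bounded, at −0.39 or further from 0. That bound was not tested. No member differed in the other direction and 28 of 31 did not pass, against 0.54% of all probe sets called, 0.229% lower and 0.31% higher. The dimmer CDH1 probe set differed by −0.87 and did not pass (adjusted p = 0.187).

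For the EN2 probe set that rose in A549, the difference between lines did not pass (0.65, adjusted p = 0.092). The difference calls depended on single arrays. Without PC9 EN2 replicate 1 none of the 31 was called (CDH1 −1.10, adjusted p = 0.0549). Only CDH1 was called without A549 EN2 replicate 1 (adjusted p = 0.0374), without PC9 EN2 replicate 2 (adjusted p = 0.0471), without PC9 vector replicate 1 (adjusted p = 0.0265) or without PC9 vector replicate 2 (adjusted p = 0.00874). Without A549 vector replicate 2, EPCAM on 11716887_a_at was lost (−0.72, adjusted p = 0.073) while the other EPCAM probe set and CDH1 were still called. The size of the CDH1 difference stayed between −1.26 and −0.99 in all fits without 1 array. Taking in the 18S rRNA signal, CDH1 differed by −1.0 (adjusted p = 0.305) and EPCAM by −0.57 (adjusted p = 0.537), and neither was called.

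The vector controls show how the junction genes stood in each line without EN2. How the scales of A549 and PC9 compare is not known, since the lower quartile of signals was 0.42 higher in A549 and the upper quartile 0.029 higher, so levels are set side by side without a test. The 18S rRNA control signal differed too, at 11.66 to 12.74 on the A549 arrays and 6.05 to 6.10 on the PC9 arrays. The line and a difference in preparation or processing cannot be told apart. EPCAM read 5.9 to 7.3 log2 units higher in PC9 than in A549 over its 3 probe sets. ESRP1 read 5.8 higher on 11723544_a_at and at least 7.0 higher on 11723543_a_at, which was below background in A549. CDH3 read 3.8 to 4.4 higher and ESRP2 3.3 higher, and all these differences were far beyond the shift of the quartiles and beyond the spread of the arrays.

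CDH1 itself differed less, by 0.59 and 1.10 on its 2 probe sets, again higher in PC9. With EN2, CDH1 in A549 thus moved further below PC9, whose 4 arrays were all above every A549 array on both probe sets. CTNND1 read 0.62 to 2.08 higher in PC9, and JUP 0.46 higher. CTNNA1 went the other way, with PC9 minus A549 values of −2.43 to −2.0 on the 6 brighter probe sets. CTNNB1 ran from −0.71 to 0.36 and gave no common direction. After quantile normalisation over all 8 arrays the differences were 6.1 to 7.5 for EPCAM, 6.0 for ESRP1 on 11723544_a_at, 0.85 to 1.10 for CDH1 and −2.42 to −1.99 for the 6 brighter CTNNA1 probe sets.

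In order of level, CDH1 on its brighter probe set ran from A549 with EN2 (8.57 ± 0.10, SD, n = 2 arrays) through A549 with vector (9.68 ± 0.054) to PC9 with vector (10.79 ± 0.19) and with EN2 (10.80 ± 0.031), and the PC9 groups were not separated. EPCAM on 11716887_a_at had the order A549 with EN2 (5.26 ± 0.10), A549 with vector (6.04 ± 0.011), PC9 with EN2 (11.98 ± 0.019) and PC9 with vector (12.04 ± 0.016). The PC9 EPCAM groups lay 0.060 apart, and that change did not pass.

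Lists of other genes of junctions and splicing, each gene represented by its brightest probe set, showed few calls. The list of genes with ESRP-regulated exons also holds CTNND1, which is among the genes examined here, and shares some genes with other lists. Over all 18244 genes in A549, 1.29% were called higher and 0.981% lower, and the median change was −0.0015. None of 18 other cadherins measured passed in A549 (median −0.083), nor did any of 9 other catenin-family proteins (median 0.0065) or 16 linkers to actin and nectins (median 0.041). Only 9 of the 18 cadherins and 6 of the 9 catenin-family genes were above background on all A549 arrays. For the rest a fall could not be read, and the medians include them. The genes of the beta-catenin destruction complex and its nuclear partners had none of 17 called and a median of 0.12. Among 5 partners of EPCAM (CLDN7, CD9, TSPAN8, CD44 and FHL2) none was called in A549 (median 0.0011).

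Of 12 genes for turnover, shedding and trafficking of E-cadherin and EPCAM, SPINT2 fell in A549 and 11 did not pass. SPINT2 encodes a membrane inhibitor of serine proteases that act on epithelial surface proteins. It went from 12.19 with vector to 11.88 with EN2 (log2 change −0.31, adjusted p = 0.0131). The SPINT2 call ended in 7 alternatives: without A549 EN2 replicate 1 (−0.30, adjusted p = 0.108), without A549 vector replicate 2 (−0.32, adjusted p = 0.0748), without both outer arrays of 18S rRNA signal (adjusted p = 0.304), on the A549 arrays alone (adjusted p = 0.107), with a constant prior variance (adjusted p = 0.0956), with treat (adjusted p = 1) and in the fit that took in 18S rRNA (−0.31, adjusted p = 0.646). Its difference between lines did not pass (adjusted p = 0.148).

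Among 19 known repressors and activators of CDH1, EHF fell in A549 and 18 did not pass. EHF, an ETS factor of epithelial cells, went from 7.04 to 5.00, a change of −2.04 (adjusted p = 7.31e-05), and from 10.41 to 9.89 in PC9, which did not pass (adjusted p = 0.237). The difference between lines passed for EHF (−1.52, adjusted p = 0.00555), against 0.263% of all genes called lower and 0.345% higher. Taking in the 18S rRNA signal, its A549 change was −1.66 (adjusted p = 0.0534) and its difference between lines −1.15 (adjusted p = 0.296). Without both outer arrays of that signal the EHF difference was −1.27 (adjusted p = 0.101). Of the 19 regulators, only 16 were above background on all A549 arrays and 15 on all PC9 arrays, and the counts that follow include the rest. The 18 others changed by −0.34 to 0.64 in A549, 8 of them downward and 10 upward (smallest adjusted p = 0.0649), and the median over all 19 was 0.0078. The level of 1 of them is given here, chosen after its values were seen. ZEB1, which represses CDH1 and the ESRP genes, read 8.94 in A549 with vector and 3.68 in PC9 with vector, below the PC9 background. Levels of the other regulators, apart from EHF, are not given, and a link of ZEB1 to the line differences was not tested.

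Genes with ESRP-regulated exons had none of 17 called in A549 (median −0.021). Other splicing regulators (RBFOX2, RBM47, QKI, MBNL1, MBNL2, PTBP1, CELF1, SRSF1 and HNRNPM) had none of 9 called (median 0.019). A gene-level signal does not report exon use. In PC9 no gene of these 9 lists was called, against 0.126% of all genes higher and 0.203% lower, with medians between −0.023 and 0.15. There 10 of the 18 other cadherins and 7 of the 9 other catenin-family genes were above background on all arrays.

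**Figure D4:**
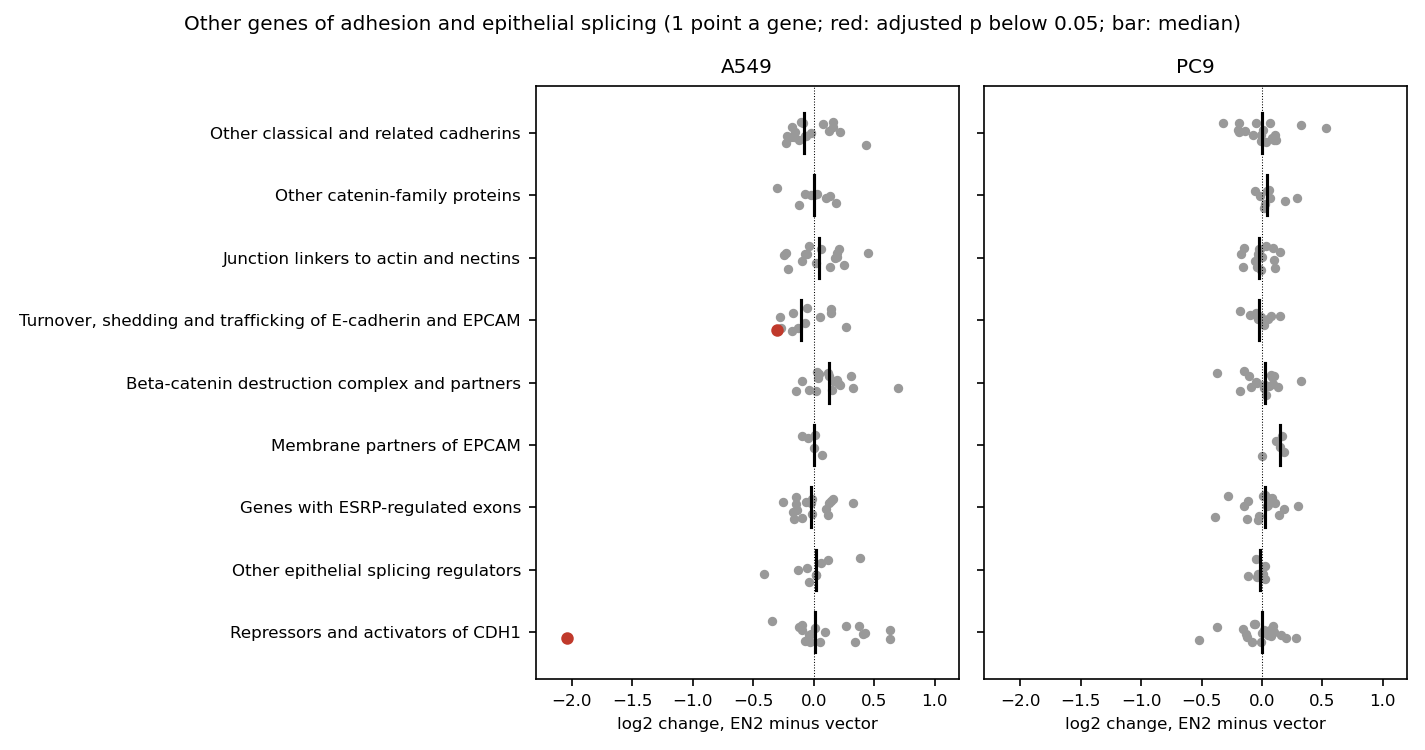
Log2 change (EN2 minus vector) of other adhesion and splicing genes by list in A549 and PC9, 1 point a gene, with a bar at each list's median. CTNND1 is drawn in the list of ESRP-regulated exons, and a gene in more than 1 list is drawn in each. The only red points, at an adjusted p below 0.05, are SPINT2 (−0.31) and EHF (−2.04) in A549.

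Genes were also ranked by how closely their values followed CDH1 and EPCAM over the 8 arrays after each line's mean was removed, as the Euclidean distance between profiles. The 5 nearest to CDH1 were FCGBP, TM4SF4, FXYD2, DAPK1 and GPX2, at distances of 0.19 to 0.29, where the CDH1 profile itself has a length of 1.14. FCGBP, a mucus protein, changed by −1.02 in A549, the membrane protein gene TM4SF4 by −1.18, and FXYD2, a subunit of the sodium pump, by −1.06. The death-associated kinase gene DAPK1 changed by −0.94 and the glutathione peroxidase gene GPX2 by −1.14. The ranking selects for such falls in A549 and for small PC9 changes (here −0.11 to 0.085), so a test of these 5 genes would add no support. In PC9, FCGBP read 4.01 to 4.19 and TM4SF4 3.92 to 4.16, near the background of 3.92, and FXYD2 read 4.74 to 4.79. A fall of the A549 size could not be read there for these last genes.

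Nearest to EPCAM were EPHX1, SRC, EPS8L2, PDZD8 and DSCAML1, at 0.11 to 0.20 against a length of 0.78. DSCAML1 was below background on both A549 EN2 arrays and on all PC9 arrays, so its place rests on values that were not above background. EPHX1, an epoxide hydrolase, went from 8.42 to 7.64 in A549, and SRC, a tyrosine kinase that acts at adhesion sites, from 9.97 to 9.25. Their A549 changes were −0.77 and −0.73, and EPS8L2, an actin regulator, changed by −0.70. The ranking rests on 4 arrays of each line and selects for the A549 change by construction.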

How the data were processed

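Total RNA was measured on 8 single-colour, biotin-labelled arrays. The deposited values were log2 signals per probe set, made with RMA per the submitters' processing notes, whose version is not given in the sources used here. Of 49495 probe sets, 202 controls were left out and 49293 tested. With the array annotation and current symbols by Entrez identifier (45208 matched), 45278 probe sets had 1 symbol, 1333 several and 2682 none. All 8 arrays entered 1 fit of the 4 group means in limma 3.58.1 under R 4.3.3 (lmFit, then eBayes with an intensity trend; 4 residual degrees of freedom; two-sided tests). Benjamini-Hochberg adjustment covered all probe sets of a comparison. With 2 arrays a group, the smallest p an exact permutation test allows is 0.333. The number of arrays limits the precision. No filter on dim probe sets was used. A gene in a list was represented by its brightest probe set with 1 symbol. The method was tested on simulated data.

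The members and lists were chosen with earlier results of these data known. Genes named from pathway lists were the called ones, up to 4 by smallest p, and ZEB1. Of marker genes, called ones and those below background on all arrays were named. Alternatives were other prior variances, dim probe sets removed, other normalisations, a gene table, a line alone, the replicate block, the 18S rRNA signal, treat with a 1.2-fold change, and each array left out.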

Additional observations from a re-analysis of the deposited data

Results flagged for a closer look

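The EN2 change differed between the lines by an interaction test in limma for 3 probe sets. The A549 change minus the PC9 change was −1.13 for CDH1 on 11716906_a_at (adjusted p = 0.00681), −0.71 for EPCAM on 11716887_a_at (adjusted p = 0.0223) and −0.79 for EPCAM on 11745651_a_at (adjusted p = 0.0126). The last value rests on A549 EN2 arrays below background, and with the background in their place it is −0.39. In A549 both EN2 arrays were lower than both vector arrays for all 3, while in PC9 the CDH1 arrays overlapped and the EPCAM changes were −0.060 and −0.057. With groups of 2 arrays, no check for single outlying arrays by Dixon's criterion was made.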

How the results depend on the processing

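Of 31 probe sets, the A549 count of 4 became 2 in the gene table, which tests 9 of them, 0 with the 18S rRNA covariate and 1 without both outer A549 arrays of that signal, and it ran from 3 to 4 without 1 array. The count of differences between lines, 3, became 0 with the 18S rRNA covariate, 0 without both outer arrays and 1 with treat against a 1.2-fold change, and ran from 0 to 3 without 1 array. The PC9 count was 0 in all 19 alternatives. CDH1 in A549 was not called with the covariate (−0.98) or without both outer arrays (−1.08), nor was EPCAM (−0.63 and −0.71). In the other 17 alternatives both kept sign and call. Without 1 array, CDH1 ran from −1.19 to −1.04 and EPCAM from −0.85 to −0.70. The brightest probe sets of the other genes, and of CDH1 and EPCAM in PC9, gave 304 values over the alternatives, none called, of which 7 turned sign.

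The labels number the replicates but do not say that a number pairs samples. Deviations of same-numbered arrays correlated across probe sets at 0.34 in A549 and 0.075 in PC9. With the replicate block, 5 members were called in A549, the fifth being EPCAM probe set 11745652_s_at (adjusted p = 0.0379), none in PC9 and 3 for the difference, while the count over all probe sets in A549 went from 977 to 2946. Where 1 array is left out, its partner has no spread of its own and takes that of the remaining groups. Signal near background limits what A549 can show for ESRP1 and for the dimmer EPCAM probe sets.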
